A study of Mus musculus with 8 samples.

Results

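The plasma membrane GABA transporters encoded by Slc6a13, Slc6a12 and Slc6a11 were examined in ATAC-seq peak lists of mouse retinal ganglion cells (RGCs). ATAC-seq marks open chromatin through the sites where a transposase can reach DNA, and a peak is a stretch where such sites pile up over the local background. Members were the peaks of 8 lists that overlapped 1 of the 3 genes or the 20 kb on either side. Slc6a13 and Slc6a12 lie next to each other on chromosome 6, 4852 bp apart, and were read as 1 locus. Overlapping peaks (1 bp or more in common) of different lists were joined to form regions, and 48 of 189914 regions lay in the 2 windows, 19 around Slc6a12 and Slc6a13 and 29 around Slc6a11.

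All samples came from C57BL/6J mice, adult according to the methods, whose eyes received AAV2 by intravitreal injection. The control virus carried GFP (3 samples), and the others Ezh2 (3 samples) or its catalytically dead form Ezh2-Y726D (2 samples). The optic nerve was crushed 2 weeks later in every group, so there was no uninjured sample, and 3 days after the crush live cells positive for CD90.2 (Thy1) were sorted, with 50000 cells per library. Virus and sort act on a population, and the labels do not say whether samples came from separate animals, so p-values measure the spread between these samples, which may be technical.

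GABA is the main inhibitory transmitter of the retina, and its signal ends when transporters of the SLC6 family carry it back into cells together with sodium and chloride. Slc6a11 (GAT3) is used largely by glia, Slc6a13 (GAT2) also carries taurine, and Slc6a12 (BGT1) carries betaine, an osmolyte, as well as GABA. Ezh2 is the catalytic subunit of polycomb repressive complex PRC2, which places the repressive mark H3K27me3 on chromatin. The lists say where chromatin was open and not how much of a transporter was made.

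Slc6a13 occupies 121300288 to 121337721 on chromosome 6 of GRCm38, Slc6a12 follows at 121342574 to 121365773, and Slc6a11 lies elsewhere on the chromosome at 114131241 to 114249886. All 3 are read on the plus strand. The RefSeq table used here gives 3 starts for Slc6a13, 5 for Slc6a12 and 1 for Slc6a11. Other genes that overlap the windows are Iqsec3 beyond Slc6a12, and the lncRNA Gm52916 and the pseudogene Gm8132 inside Slc6a11. The 250 bases before the first start of each gene are shown because these 3 stretches differed in the lists that had a peak there. The stretches before the later Slc6a12 starts 121343256 and 121343388, not shown, had a peak in all 8 lists. Sequences are from RefSeq on GRCm38.p6, on the plus strand, and capitals mark the bases that lay inside a peak in every list with a peak over the promoter.
Slc6a13, chr6:121300038-121300287, peaks in 2 of 8 lists: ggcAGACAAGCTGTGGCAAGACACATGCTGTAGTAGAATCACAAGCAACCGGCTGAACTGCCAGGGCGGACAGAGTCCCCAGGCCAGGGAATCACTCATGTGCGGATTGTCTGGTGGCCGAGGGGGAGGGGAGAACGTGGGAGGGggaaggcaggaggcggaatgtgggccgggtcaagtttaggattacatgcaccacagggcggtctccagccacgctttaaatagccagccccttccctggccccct
Slc6a12, chr6:121342324-121342573, peaks in 0 of 8 lists: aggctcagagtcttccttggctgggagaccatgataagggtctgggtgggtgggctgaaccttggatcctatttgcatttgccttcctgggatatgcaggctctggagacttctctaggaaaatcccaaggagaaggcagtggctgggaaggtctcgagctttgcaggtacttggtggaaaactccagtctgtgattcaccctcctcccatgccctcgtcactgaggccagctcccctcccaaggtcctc
Slc6a11, chr6:114130991-114131240, peaks in 8 of 8 lists: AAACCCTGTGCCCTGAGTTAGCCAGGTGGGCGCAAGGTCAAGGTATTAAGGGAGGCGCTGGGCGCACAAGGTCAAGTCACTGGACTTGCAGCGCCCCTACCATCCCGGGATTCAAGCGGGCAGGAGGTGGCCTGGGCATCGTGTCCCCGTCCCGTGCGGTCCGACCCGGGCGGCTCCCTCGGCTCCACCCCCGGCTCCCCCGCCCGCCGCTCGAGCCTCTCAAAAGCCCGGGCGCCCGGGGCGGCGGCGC

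The 3 promoters shown, each before a first start, differed in base composition. The Slc6a11 promoter held 25 CpG dinucleotides and 71.2% G or C, more CpG than 89.2% of 32536 RefSeq promoter stretches of the same length. The Slc6a13 promoter held 9 CpG and 60.8% G or C, and that of Slc6a12 held 2 CpG and 55.6% G or C, against a median of 6 CpG and 52.4% over all promoters. The GC box GGGCGG, searched on both strands, occurred 2 times in the Slc6a13 promoter, 3 times in that of Slc6a11 and 0 times in that of Slc6a12. It was present in 33.0% of all promoters. The TATA box letters TATAAA were found in none of the 3 and in 12.3% of all promoters. TGANTCA, a looser pattern than the AP-1 core, was found in that of Slc6a12, as TGATTCA, and in 6.73% of all. Such matches describe letters and not bound sites.

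The 8 lists held 112939 to 135895 peaks. Read numbers are not given in the lists, so sequencing depth is unknown, and a peak missing from a list may have been below its threshold. Of 10 RGC markers, 9 or 10 had a peak within 1 kb of a gene end in every list. Other retinal classes were as well covered by this measure, with 7 to 9 of 10 rod markers, 8 to 10 of 10 bipolar markers, 7 to 9 of 10 amacrine markers and 9 of 10 Müller glia markers, so it does not show that the sort was pure. T cell markers had such peaks at 9 or 10 of 10 genes in each GFP and Ezh2 list and at 4 and 3 in the Ezh2-Y726D lists. Microglia markers had them at 5 to 8 of 10 in GFP and Ezh2 and at 2 in each Ezh2-Y726D list, and Cx3cr1, C1qb and Tyrobp had none in Ezh2-Y726D. Endothelial markers (6 or 7 of 10), fibroblast and pericyte markers (5 or 6) and RPE markers (7) did not separate the groups. The gene body of Ezh2 held 4, 5 and 6 peaks in the GFP lists, 9, 10 and 9 in the Ezh2 lists and 4 in each Ezh2-Y726D list.

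Chromatin at the start of Slc6a13 was examined first, since a promoter that opens or closes would show there. No GFP or Ezh2 list had a peak over the 250 bases before any of its 3 starts. Both Ezh2-Y726D lists had a peak just before the first start, in the region 121299958 to 121300240, which ended 48 bp before it. The peaks spanned 225 and 200 bp with folds over local background of 3.25 and 3.64, and the fold ranked at the 9.23rd and 20.6th percentile of its own list. They were weak, with −log10 q of 2.66 and 4.19, and their summits were 169 bp apart. Where lists were cut to equal length, or only peaks with −log10 q of at least 5 were kept, no list had a peak there. Of 17491 protein-coding genes with a RefSeq start, 18 (0.103%) had a peak at the first promoter in both Ezh2-Y726D lists and in no other list, a count made after the values of Slc6a13 were seen. That share is low partly because most promoters were alike in every list, with a peak in all 8 lists at 59.0% and in no list at 34.0%. A peak in all 3 Ezh2 lists only was found at 42 promoters, and in all 3 GFP lists only at 3. In bulk libraries, fewer cells with an open site and a less open site in each cell cannot be told apart.

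Open chromatin at Slc6a13 lay instead in the far part of the gene. The other 4 regions over Slc6a13 were centred 26.5 to 36.3 kb after its first start. The last of these, at 121336230 to 121336926, had a peak in every list, with percentiles of 37.5, 19.5 and 41.3 with GFP, 47.6, 45.3 and 45.1 with Ezh2, and 40.0 and 16.9 with Ezh2-Y726D. All Ezh2 values were above the others, by 0.35 ± 0.21 (SE) normal scores over GFP, a difference that did not pass the test (limma adjusted p = 0.418). The region at 121329547 to 121330485 ranged over percentiles 3.11 to 45.7 in GFP, which enclosed the 5 other values.

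Slc6a13 also held a region that was absent from the Ezh2 lists. At 121328491 to 121329016, percentiles were 15.3, 43.2 and 16.5 in GFP and 13.04 and 12.4 in Ezh2-Y726D, and no Ezh2 list had a peak. The peaks of GFP replicate 1 (−log10 q 4.36) and Ezh2-Y726D replicate 1 (4.90) were among the weak ones, and with only peaks of −log10 q of at least 5 neither group had one in every list. The neighbouring region at 121326600 to 121327015 had a peak in GFP replicates 2 and 3, in all Ezh2 lists and in Ezh2-Y726D replicate 2, with percentiles from 11.1 to 37.3.

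**Figure D1:**
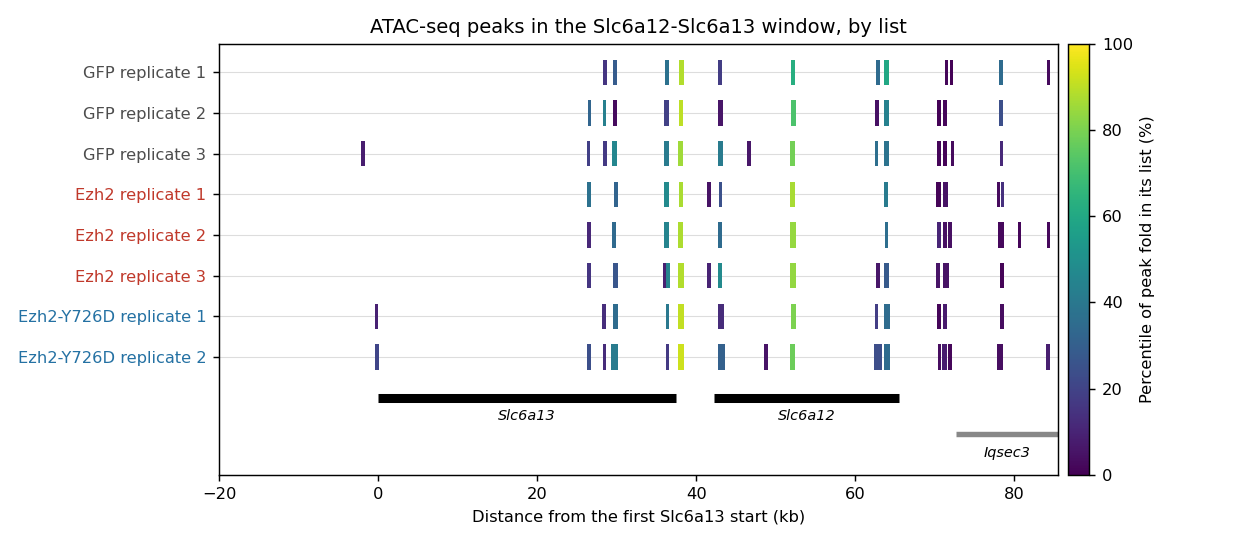
Each bar is a peak of 1 list, placed by its distance from the first Slc6a13 start in kb (x axis) and coloured by the percentile of its fold within the list, with 1 row per list and gene bodies underneath. Peaks narrower than 0.45 kb are drawn 0.45 kb wide. The start of Slc6a13 has a peak in both Ezh2-Y726D lists and in no other, and the brightest bars, between the genes and inside Slc6a12, are present in every list.

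The strongest peak of the locus lay between the genes, at 121337986 to 121338722, after the end of Slc6a13 and 4.22 kb before the first start of Slc6a12. Its fold was 8.65, 9.66 and 8.17 in the GFP lists, 8.69, 8.55 and 8.30 in the Ezh2 lists and 10.03 and 10.2 in the Ezh2-Y726D lists. Both Ezh2-Y726D folds were above all others. Ranked within lists, the mean percentiles (± SD) were 88.1 ± 2.12 for GFP (n = 3), 87.8 ± 0.678 for Ezh2 (n = 3) and 91.6 ± 1.17 for Ezh2-Y726D (n = 2). The normal scores differed by 0.20 ± 0.18 (SE) between Ezh2-Y726D and GFP (limma adjusted p = 0.547) and by -0.24 ± 0.18 between Ezh2 and Ezh2-Y726D (adjusted p = 0.413), so no change was called. Summits in the 8 lists fell within 36 bp of each other.

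Slc6a12 carried 6 regions, 3 of them in every list. The region over its later starts, at 121343067 to 121343926, had percentiles of 17.9, 5.59 and 41.4 with GFP, 24.9, 34.6 and 47.6 with Ezh2, and 12.1 and 30.7 with Ezh2-Y726D. These groups overlapped throughout. A stronger region inside the gene, at 121352055 to 121352865, had folds of 5.49, 6.72 and 7.07 with GFP, 8.61, 7.92 and 7.43 with Ezh2, and 7.93 and 7.35 with Ezh2-Y726D. Each of the 5 lists with an Ezh2 construct had a higher fold than each GFP list, a comparison of raw fold between libraries of unknown depth. On within-list percentiles, Ezh2-Y726D (80.2 and 77.4) overlapped GFP (62.6, 71.5 and 78.5), while Ezh2 (86.9, 84.2 and 83.7) stayed above both. On the rank scale, Ezh2 was above GFP by 0.55 ± 0.17 (SE) normal scores (limma adjusted p = 0.106) and Ezh2-Y726D by 0.25 ± 0.19 (adjusted p = 0.484), and neither passed the test.

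Near the end of Slc6a12 lay a pair of regions, the weaker of which was mostly absent from the Ezh2 lists. At 121362724 to 121363646 all 3 GFP lists had a peak (percentiles 34.7, 4.49 and 36.2), as did both Ezh2-Y726D lists (18.0 and 23.7) and only replicate 3 of the Ezh2 lists (5.97). Its neighbour at 121363877 to 121364618 was in every list at percentiles 28.01 to 59.8, lower than GFP by 0.37 normal scores in both other groups (adjusted p = 0.404 and 0.408). The remaining regions over Slc6a12, at 121346820 and 121348964, were single peaks of GFP replicate 3 and Ezh2-Y726D replicate 2. Before Slc6a12, 121341712 to 121342077 had a weak peak in Ezh2 replicates 1 and 3 only, and before Slc6a13, 121298231 to 121298499 had one in GFP replicate 3.

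Beyond Slc6a12, the region 121371213 to 121372714 was weak in every list. Percentiles were lowest in GFP (1.73 to 3.09), then Ezh2 (4.01 to 5.05) and then Ezh2-Y726D (7.16 and 7.53), without overlap between groups. The region joins separate peaks, with summits of the strongest peaks up to 1245 bp apart. In GFP replicate 3 the 3.09 came from a peak at 121372359, and its other peak was at percentile 1.11. How often percentiles or folds separate the groups was not counted over all regions, here or elsewhere in the 2 windows. Ezh2-Y726D exceeded GFP by 0.54 ± 0.16 normal scores (limma adjusted p = 0.0716), short of the threshold. Inside Iqsec3, 121378159 to 121378984 had percentiles of 34.6, 23.8 and 11.3 in GFP against 13.9, 2.07 and 0.801 with Ezh2 and 3.26 and 3.72 with Ezh2-Y726D, and differences from GFP of -0.96 and -0.88 normal scores did not pass the test (adjusted p = 0.120 and 0.158). Of the other 3 regions there, 1 had a peak in 7 lists, 1 in 3 lists and 1 in Ezh2 replicate 2 alone.

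At Slc6a11 the promoter itself was open in every list. The region 114130771 to 114132866 covers its start, and its percentiles were 59.7, 75.6 and 68.1 with GFP, 59.2, 67.3 and 66.6 with Ezh2, and 46.3 and 49.5 with Ezh2-Y726D. Both Ezh2-Y726D lists were below all others. The difference between Ezh2-Y726D and GFP was -0.65 ± 0.21 (SE) normal scores (limma adjusted p = 0.0827), and Ezh2 was above Ezh2-Y726D by 0.51 ± 0.21 (adjusted p = 0.130). Neither passed the test. Summits fell within 21 bp of each other across the lists, just before the transcription start.

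The 1 change called in either window lay upstream of Slc6a11. In the region 114121316 to 114122484, centred 9.34 kb before the start, the fold was 5.73, 5.66 and 4.78 with GFP, 5.95, 5.86 and 6.09 with Ezh2, and 4.08 and 3.75 with Ezh2-Y726D. Mean percentiles (± SD) were 58.2 ± 7.75 for GFP (n = 3), 67.8 ± 3.34 for Ezh2 (n = 3) and 25.6 ± 3.14 for Ezh2-Y726D (n = 2), with both Ezh2-Y726D lists far below the rest. It fell by 0.93 ± 0.22 normal scores in Ezh2-Y726D against GFP (limma adjusted p = 0.0295) and was 1.22 ± 0.22 higher in Ezh2 than in Ezh2-Y726D (adjusted p = 0.00627). The difference of 0.29 ± 0.19 between Ezh2 and GFP was not called (adjusted p = 0.456). Both comparisons share the Ezh2-Y726D lists, the same lists in which T cell and microglia markers had fewer peaks, and the part of those cells in this result was not tested.

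The call against GFP was a narrow one. It was lost on leaving out GFP replicate 1 (adjusted p = 0.0721), GFP replicate 2 (0.0687), Ezh2-Y726D replicate 1 (0.126) or Ezh2-Y726D replicate 2 (0.177), with differences of -0.80 to -1.12 normal scores over all samples left out. It was also lost with the replicate number of the peak names as a block (-0.87, adjusted p = 0.0745). The call between Ezh2 and Ezh2-Y726D was lost without Ezh2-Y726D replicate 2 (1.08, adjusted p = 0.0587).

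**Figure D2:**
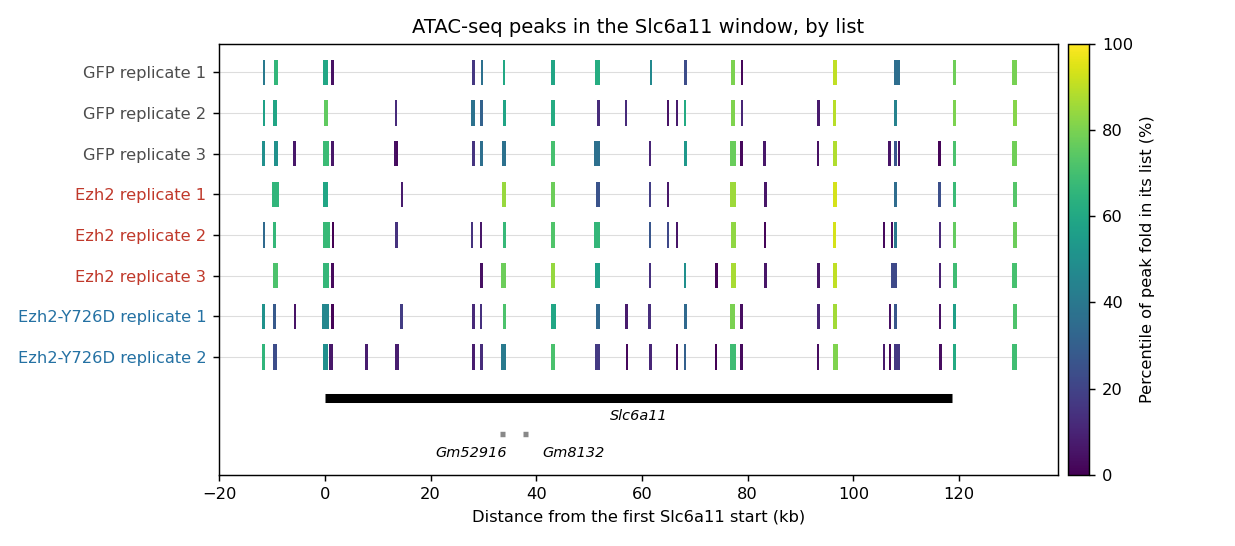
Peaks of each list in the Slc6a11 window are placed by distance from the Slc6a11 start in kb (x axis) and coloured by the percentile of their fold, with 1 row per list and gene bodies underneath. Peaks narrower than 0.45 kb are drawn 0.45 kb wide. The region centred 9.34 kb before the start is darker in both Ezh2-Y726D lists, and the strongest region, 96.6 kb after the start, is bright in all 8.

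Within Slc6a11, 24 regions overlapped the gene and 7 of them were in every list. The strongest, at 114227277 to 114228374, had folds of 9.07, 9.46 and 8.58 with GFP, 10.4, 10.1 and 8.78 with Ezh2, and 8.93 and 7.78 with Ezh2-Y726D. Its mean percentile (± SD) was 89.2 ± 1.26 for GFP (n = 3), 92.5 ± 1.73 for Ezh2 (n = 3) and 83.5 ± 3.95 for Ezh2-Y726D (n = 2). Ezh2 lay 0.57 ± 0.19 normal scores above Ezh2-Y726D (limma adjusted p = 0.0757), which did not pass the test. The region 114207915 to 114209019 was next, at percentiles 77.1 to 80.5 with GFP, 83.4 to 86.8 with Ezh2, and 69.1 and 80.0 with Ezh2-Y726D.

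A pair of regions in the first part of the gene were higher in Ezh2 than in GFP without passing the test. At 114164637 to 114165544, which also overlaps Gm52916, percentiles were 60.1, 58.2 and 37.2 with GFP, 84.6, 67.1 and 77.4 with Ezh2, and 71.8 and 40.7 with Ezh2-Y726D, and Ezh2 exceeded GFP by 0.82 ± 0.32 normal scores (adjusted p = 0.180). At 114173957 to 114174971 the GFP percentiles were 58.7, 60.96 and 70.4 and those of Ezh2 77.4, 72.3 and 84.1, a difference of 0.51 ± 0.18 (adjusted p = 0.152). The regions 114182094 to 114183365 and 114238371 to 114240057 had groups that overlapped, at percentiles 12.2 to 66.3 and 16.3 to 44.5.

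Just past the end of the gene, 114250018 to 114250858 had percentiles of 77.9, 80.2 and 71.3 with GFP, 67.9, 76.1 and 68.8 with Ezh2, and 56.2 and 60.6 with Ezh2-Y726D. Ezh2-Y726D was again below every other list, by 0.66 ± 0.21 normal scores from GFP (adjusted p = 0.0772). Further on, the region 114261296 to 114262235 had percentiles of 78.2 to 81.7 with GFP, 70.5 to 77.4 with Ezh2, and 69.3 and 72.2 with Ezh2-Y726D, and no comparison passed the test.

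**Figure D3:**
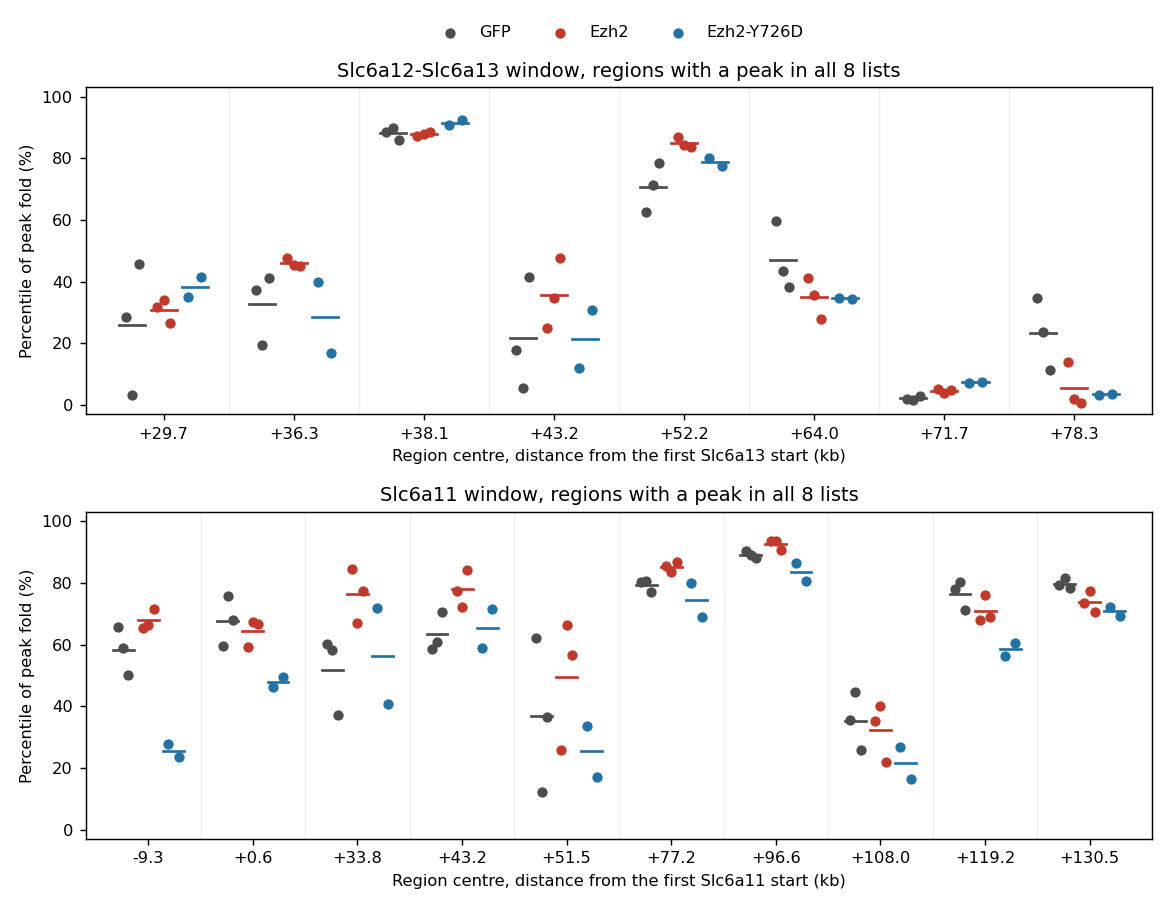
Points give the percentile of peak fold within its list (y axis, %) for every region found in all 8 lists, labelled by the distance of its centre from the first Slc6a13 or Slc6a11 start in kb (x axis), with short lines for group means. At the Slc6a11 region 9.34 kb before the start, the Ezh2-Y726D points at 27.8 and 23.4 lie well below the GFP and Ezh2 points, whereas most other groups overlap or nearly touch.

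Across the 18 regions with a peak in all 8 lists, limma called 0 between Ezh2 and GFP, with 4 of them at an unadjusted p under 0.05. That share was 20% over all regions, while 5 of the 18 passed the same limit between Ezh2-Y726D and GFP, beside 24.4%, and 5 between Ezh2 and Ezh2-Y726D, beside 29.4%. Over all 69493 such regions, 1.59% were called higher and 2.84% lower between Ezh2 and GFP. Between Ezh2-Y726D and GFP 1 of the 18 was called lower, against 4.65% lower and 3.55% higher over all regions. Between Ezh2 and Ezh2-Y726D 1 was called higher in Ezh2, against 7% higher and 6.96% lower over all regions. The members' counts were close to these shares.

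The direction of the differences was then counted in each window, the called region 114121316 included. In the Slc6a11 window, all 10 regions were higher in Ezh2 than in Ezh2-Y726D, with a median difference of 0.50 normal scores, beside 0.02 over all regions. In the Slc6a12-Slc6a13 window 3 of 8 were higher and 5 were lower, with a median of -0.04. Against GFP, Ezh2-Y726D was lower in 8 of the 10 Slc6a11 regions (median -0.37) and in 3 of the 8 others (median 0.14), and the median over all regions was -0.01. Regions of 1 window share libraries and are not replicates, so no test was made over them. How often all regions of a window point the same way was not counted over other genes.

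**Figure D4:**
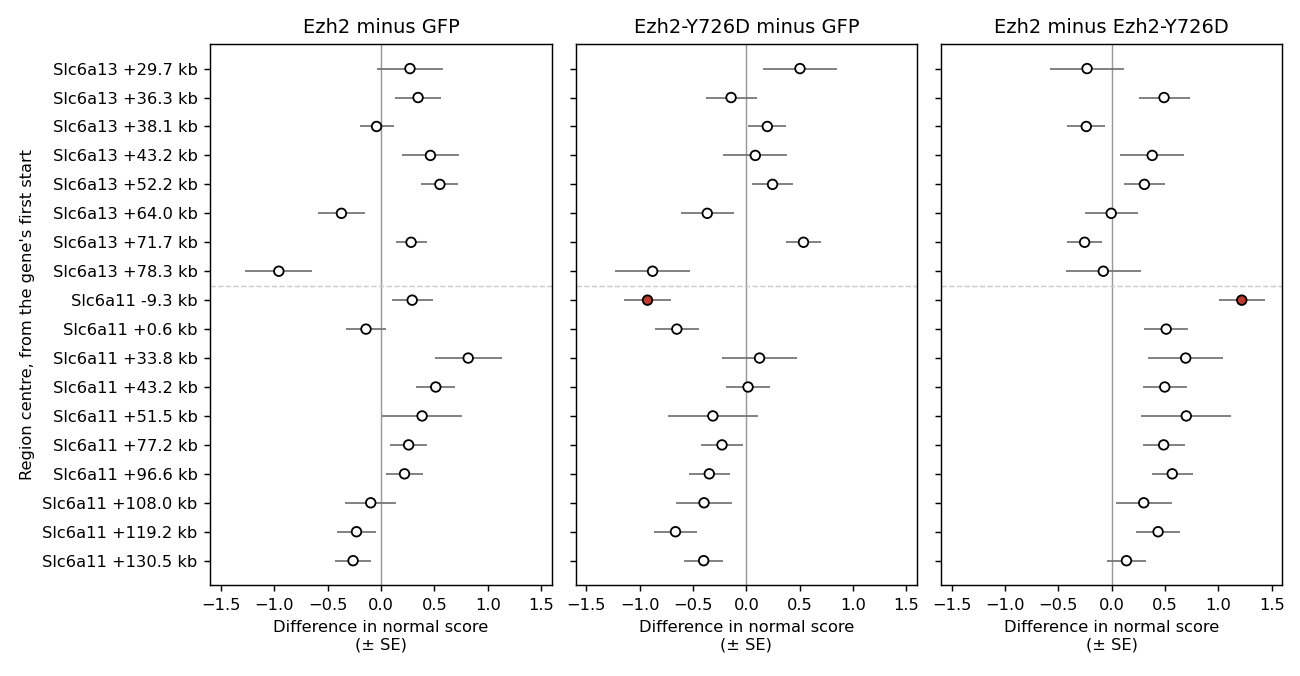
Points give the difference in normal score of within-list fold rank (x axis, with bars of 1 SE from limma) for every region found in all 8 lists, labelled by distance from the first start of Slc6a13 or Slc6a11, in 3 panels for the 3 comparisons. Filled points have an adjusted p under 0.05, and the only ones are the Slc6a11 region 9.34 kb before the start in the panels of Ezh2-Y726D minus GFP and Ezh2 minus Ezh2-Y726D.

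Presence and absence of peaks described the weaker regions. A region was gained when every list of the first group and no list of the other had a peak, and lost in the reverse case. Between Ezh2 and GFP, 2 of the 48 regions were lost and 0 were gained, against 1.68% and 2.72% of all 189914 regions. The lost regions were 121328491 in Slc6a13 and 114209900 in Slc6a11. At 114209900 to 114210332, all GFP and Ezh2-Y726D peaks were weak, at percentiles 1.77 to 10.5, and the region was no longer lost against GFP with lists of equal length or with −log10 q of at least 5. Between Ezh2-Y726D and GFP, the start of Slc6a13 was the 1 region gained and 0 were lost, against 4.77% and 4.72% of all regions.

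Between Ezh2 and Ezh2-Y726D, 1 region was gained and 5 were lost, against 8.96% and 6.14% of all regions. The gained region, 114214180 to 114214754 in Slc6a11, had percentiles of 5.50, 1.47 and 5.78 in Ezh2 and of 6.57 in GFP replicate 3. Lost regions were the start of Slc6a13, the 2 regions also lost against GFP, and 114188003 to 114188571 and 114237894 to 114238309 in Slc6a11, each with a weak peak in both Ezh2-Y726D lists and in 1 GFP list. With lists of equal length, 3 of the 5 lost and the gained region no longer met the rule.

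Several regions were nearly absent from Ezh2 lists. In 6 of the 48 regions (12.5%), every GFP and Ezh2-Y726D list but at most 1 Ezh2 list had a peak, against 2.38% of all regions. The opposite case, a peak in every Ezh2 and Ezh2-Y726D list and in at most 1 GFP list, was met by 1 region, against 1.69% of all. Both counts were made after the values were seen and carry no test. Beside the 2 lost regions and 121362724 in Slc6a12, the 6 were 114119296, 114158935 and 114199117 at Slc6a11.

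Some of those regions were not weak where they were present. At 114199117 to 114199715, percentiles were 23.4, 60.9 and 53.2 in GFP, 49.6 in Ezh2 replicate 3 and 33.6 and 30.2 in Ezh2-Y726D. At 114119296 to 114119882, upstream of the gene, they were 40.8, 57.3 and 49.9 in GFP, 34.3 in Ezh2 replicate 2 and 51.1 and 65.5 in Ezh2-Y726D. Outside those 6, in 114160542 to 114161234, the GFP percentiles of 36.6, 30.99 and 36.2 stood above 6.10 and 3.92 in Ezh2 replicates 2 and 3, with no peak in replicate 1, and above 13.8 and 12.6 in Ezh2-Y726D. The single region of the opposite kind, 114247218 to 114247945 near the end of Slc6a11, had percentiles of 24.04, 11.2 and 8.72 in Ezh2, 3.91 and 3.35 in Ezh2-Y726D and 0.799 in GFP replicate 3.

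The other 10 regions of the Slc6a11 window were scattered over 1 to 7 lists each. In none of them did every list of 1 group have a peak and none of another. Percentiles reached 47.3 at 114192471 to 114193135, in GFP replicate 1, a region present in 7 lists.

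The number of peaks was counted for each list. The Slc6a12-Slc6a13 window held 12, 12 and 15 peaks with GFP, 12, 13 and 13 with Ezh2, and 12 and 16 with Ezh2-Y726D, or on average 13 ± 1.73 (SD, n = 3), 12.7 ± 0.577 (n = 3) and 14 ± 2.83 (n = 2). The groups overlapped, and two-sided exact permutation tests gave p = 1 for Ezh2 against GFP, 0.7 for Ezh2-Y726D against GFP and 0.5 for Ezh2 against Ezh2-Y726D. With lists of equal length, however, that window held 10, 12 and 11 peaks with GFP, 9 in each Ezh2 list, and 11 and 14 with Ezh2-Y726D, so that Ezh2 lay below both other groups without overlap (exact p = 0.1 each). The Slc6a11 window held 17, 20 and 25 peaks with GFP, 15, 22 and 18 with Ezh2, and 23 and 26 with Ezh2-Y726D, or 20.7 ± 4.04, 18.3 ± 3.51 and 24.5 ± 2.12. Every Ezh2 list had fewer peaks there than every Ezh2-Y726D list, a mean difference of -6.17 (exact p = 0.2), whereas Ezh2 against GFP (exact p = 0.6) and Ezh2-Y726D against GFP (exact p = 0.3) overlapped. With only peaks of −log10 q of at least 5, Ezh2-Y726D (20 and 20) no longer overlapped GFP (16, 14 and 15; exact p = 0.1). With these numbers of samples no p can be below 0.1, so none could pass 0.05.

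Counts without overlap were common among genes. Over the 20 kb windows of 21883 protein-coding genes, every Ezh2 list had fewer peaks than every Ezh2-Y726D list in 7.57% and more in 21.8%. For Ezh2 against GFP these shares were 2.29% fewer and 8.41% more, and for Ezh2-Y726D against GFP 12.6% fewer and 8.08% more. These shares are from the full lists, and none was counted for lists of equal length or with −log10 q of at least 5. Counts without overlap under those settings therefore have no background here. Both transporter windows were rich in peaks, with 1.24 per 10 kb for Slc6a12-Slc6a13 and 1.31 for Slc6a11 on average over the lists, against a median of 0.697 over all gene windows. Peaks covered 5589 to 7081 bp of the Slc6a12-Slc6a13 window in GFP, 5749 to 6006 bp in Ezh2 and 6275 and 8547 bp in Ezh2-Y726D (Ezh2 against Ezh2-Y726D, exact p = 0.1). The Slc6a11 window separated these 2 groups as well, with 10234 to 11711 bp in Ezh2 and 12595 and 16113 bp in Ezh2-Y726D (exact p = 0.1). How often covered bases separate the groups was not counted over other gene windows.

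**Figure D5:**
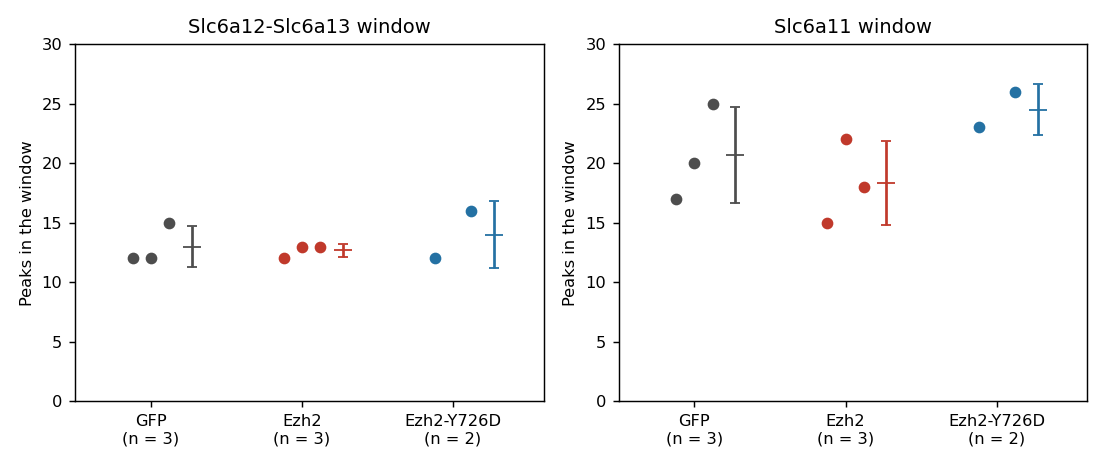
Points give the number of peaks per list (y axis) in each window by group, with the mean and SD at the right of each group. In the Slc6a11 window the Ezh2 lists hold 15 to 22 peaks and the Ezh2-Y726D lists 23 and 26, whereas all groups overlap in the Slc6a12-Slc6a13 window.

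Of the other genes of GABA handling, 5 were listed, namely Gad1 and Gad2, which make GABA, Slc32a1, which loads it into vesicles, and Abat and Aldh5a1, which break it down. Their 20 kb windows held 28 regions with a peak in all lists. Between Ezh2 and GFP, 2 of these were called higher and 1 lower, all in Abat, beside 1.59% and 2.84% of all regions. Between Ezh2-Y726D and GFP limma called 0 (3.55% and 4.65% of all regions), with 7 of the 28 at an unadjusted p under 0.05 beside 24.4% of all regions. Between Ezh2 and Ezh2-Y726D 2 were called higher, in Gad1 and Abat, and 0 lower (7% and 6.96% of all regions). Of the 62 regions in any list, 2 were gained and 0 lost between Ezh2 and GFP (2.72% and 1.68% of all regions), 2 and 2 between Ezh2-Y726D and GFP (4.77% and 4.72%), and 3 and 3 between Ezh2 and Ezh2-Y726D (8.96% and 6.14%). With so few regions, nothing is read from these counts about GABA handling. The strongest difference in Abat, the GABA transaminase, was a fall of the region 8523557 to 8524509 on chromosome 16 from percentiles of 73.5, 78.6 and 70.4 in GFP to 25.7, 48.5 and 43.1 in Ezh2 (-1.13 ± 0.22, adjusted p = 0.0223).

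Among 16 other genes of the SLC6 family, with 69 such regions, calls were found in both directions. Between Ezh2 and GFP 1 region was called higher and 1 lower (1.59% and 2.84% of all regions), between Ezh2-Y726D and GFP 3 and 2 (3.55% and 4.65%), and between Ezh2 and Ezh2-Y726D 5 and 3 (7% and 6.96%). Of 128 regions in any list, 2 were gained and 2 lost in the first comparison, 0 and 6 in the second and 7 and 2 in the third, beside the shares of all regions just given for gains and losses. These counts were near or below the background and are no result about the family. The largest difference was in Slc6a16, an orphan member, where a region had percentiles of 62.6, 50.2 and 57.3 with GFP, 36.2, 21.7 and 34.0 with Ezh2, and 89.5 and 87.8 with Ezh2-Y726D. It was called lower in Ezh2 than in GFP (-0.78 ± 0.18, limma adjusted p = 0.0431) and higher in Ezh2-Y726D (1.22 ± 0.21, adjusted p = 0.00886), with -1.9996 ± 0.21 between Ezh2 and Ezh2-Y726D (adjusted p = 0.000803). Regions of Slc6a6, the taurine transporter (1.22 ± 0.21), and near Slc6a7, a proline transporter (1.13 ± 0.24), were called higher in Ezh2-Y726D than in GFP. In Slc6a9, the glycine transporter of amacrine cells, 1 region was higher in Ezh2 than in GFP (0.71 ± 0.17) and another higher in Ezh2 than in Ezh2-Y726D (1.22 ± 0.20). A region of Slc6a20a, an imino acid transporter, was also higher in Ezh2 than in Ezh2-Y726D (0.95 ± 0.26).

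As a description of likeness, the strongest shared region of each window was compared with that of every other protein-coding gene over the 8 lists (17923 genes in all), by Pearson r of the normal scores. The region between Slc6a13 and Slc6a12 was most like those of Ccl6 (0.969), Sspo (0.962), Cyp2f2 (0.954), Ciapin1 (0.954) and Nup98 (0.951). That of Slc6a11 was most like those of Fam13a (0.984), P2ry12 (0.972), St7 (0.967), Bpgm (0.965) and Mrrf (0.964). With 8 points and so many genes, high values occur without any link.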

How the data were processed

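ATAC-seq peaks had been called by the authors in each sample separately and deposited as 1 narrowPeak list per sample. Per the labels, cutadapt, Bowtie2, SAMtools, Picard and MACS2 were used with GRCm38, with versions not given in the sources used here. The deposited fold is a ratio of signal to local background, and the deposited −log10 p and −log10 q rank peaks within a library. The summit is its distance from the peak start. Groups came from titles. The members and lists were chosen with earlier results of these data known.

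Regions were peaks of any list sharing at least 1 bp, and a list's highest fold counted. For the 69493 regions in all 8 lists, fold was ranked within a list, turned into normal scores, and fitted with limma 3.58.1 in R 4.3.3 (8 samples, 1 fit). Calls had a Benjamini-Hochberg adjusted p under 0.05 over all regions. Peak counts were compared by two-sided exact permutation tests. The limma fit was tested on simulated scores, and the permutation test on small examples with known answers. Gene positions and promoters are from RefSeq (GRCm38.p6). Alternatives covered list length, threshold, window, ranking, overlap, replicate block and left-out samples. Regions over members, called, gained or lost were to be named, with the GABA and SLC6 genes of largest difference. Promoter sequences came from a RefSeq table. A further gene of the GABA and SLC6 lists is not reported here.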

Additional observations from a re-analysis of the deposited data

How the results depend on the processing

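Depth is unknown, so a missing peak is not evidence of closed chromatin, and with 2 Ezh2-Y726D samples small differences could not be called. Replicate numbers gave little sign of pairing between the samples. Peak names number the Ezh2-Y726D samples 2 and 3 where titles have 1 and 2. Deviations of same-numbered samples correlated at r of -0.0151 to 0.0478 by the titles and 0.0018 to 0.0478 by the peak names. Samples with other title numbers gave -0.0482 to 0.0461, and those with other peak name numbers -0.0482 to 0.0303. The deviations of the 2 Ezh2-Y726D samples mirror each other, so their r values are equal with opposite signs and are not separate evidence. The cause of the changes below was not tested.

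Differences in peaks of the Slc6a12-Slc6a13 window changed sign for Ezh2 against GFP with 50 kb around the genes (0.333). With lists of equal length they moved from -0.333 to -2 for Ezh2 against GFP and from -1.33 to -3.5 for Ezh2 against Ezh2-Y726D (exact p = 0.1 each). Leaving out a sample gave -0.833 to 0.667 peaks for Ezh2 against GFP, -1 to 3 for Ezh2-Y726D against GFP and -3.33 to 0.667 for Ezh2 against Ezh2-Y726D, with the sign changed without GFP replicate 3 in the first and without Ezh2-Y726D replicate 2 in the others. In the Slc6a11 window no alternative changed a sign, but without a sample the difference of -2.33 for Ezh2 against GFP ranged from -4.17 (without Ezh2 replicate 2 or GFP replicate 1) to -0.167 (without GFP replicate 3), that of 3.83 for Ezh2-Y726D against GFP from 2 (without GFP replicate 1) to 6 (without GFP replicate 3), and that for Ezh2 against Ezh2-Y726D from -8 to -4.5. Called regions of both windows for Ezh2 against GFP were 0 and became 1, higher in Ezh2, when ranked by −log10 p. They became 1, lower in Ezh2, with regions in at least 5 lists and with the replicate block by titles or by peak names. Without a sample they were 0 to 2, and the 2 without Ezh2 replicate 1 were lower in Ezh2. For Ezh2-Y726D against GFP, 1 became 2 when ranked by −log10 p, 2 with the replicate block by titles and 0 with that by peak names, and 0 to 2 without a sample. For Ezh2 against Ezh2-Y726D, 1 became 2 when ranked by −log10 p, and 0 to 1 without a sample. Where an Ezh2-Y726D sample was left out, the other was assumed to vary like the remaining groups. Gained or lost regions were 2, 1 and 6 in the 3 comparisons, and 2 to 5, 1 to 5 and 6 to 10 without a sample. For Ezh2 against Ezh2-Y726D they were 3 with lists of equal length and 3 with −log10 q of at least 5.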
